A study of Mus musculus with 4 samples.

Results

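Pax2, Pax8, Emx2, Lhx1, Wt1 and Sox17 encode transcription factors that are used as markers of the Müllerian duct and of the tissues around it. They were taken by symbol from the 31053 genes listed in the count matrices, and all 6 were found. Single-cell RNA counts came from oviducts and uteri of wild-type, untreated CD1 mice (ICR, Strain Code:022) on postnatal day 3, in 4 libraries, 2 for each organ. Tissue of 3 or of 4 neonates was pooled for a library and both organs came from the same neonates, so that a p-value describes the spread between 2 pools per organ. Levels are in CPM, the UMIs (unique molecular identifiers, 1 per captured RNA molecule) of the gene per 1000000 UMIs of a cell class in 1 library, and classes were set per cell by marker genes that do not include the 6.

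The Müllerian ducts are epithelial tubes that form along the mesonephros from the coelomic epithelium and give rise to the oviduct, the uterus and the upper vagina. Lhx1 (a LIM homeodomain factor) and Pax2 and Pax8 (paired box factors) act in the epithelium of the duct, Emx2 (a homeodomain factor) is needed for the urogenital system to form, and mice that lack Pax2, Lhx1 or Emx2 have no Müllerian tract. Wt1 (a zinc finger factor) marks the coelomic lining and the mesenchyme below it, and Sox17 (an SRY-related HMG box factor) is known both in uterine epithelium, where it acts in gland formation, and in arterial endothelium. In the adult tract Pax8 is a common marker of the epithelium.

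By the GENCODE M21 annotation of GRCm38, the same assembly as the mm10 build named in the submitters' processing notes, the genes lie at chr19:44756045-44837871 on the plus strand (Pax2), chr2:24420560-24475599 on the minus strand (Pax8), chr19:59458372-59465357 on the plus strand (Emx2), chr11:84518284-84525535 on the minus strand (Lhx1), chr2:105126529-105173616 on the plus strand (Wt1) and chr1:4490931-4497354 on the minus strand (Sox17). 3 of them have an antisense or divergent partner among the measured genes. Lhx1os starts 124 bases from Lhx1 and Wt1os 18 bases from Wt1, both reading away, whereas Emx2os shares 264 bases with Emx2.

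Promoter sequences from RefSeq (GRCm38.p6) were at hand for 4 of the 6 genes. They are printed for Pax8 and Lhx1, which were both higher in oviduct epithelium, and for Pax2, which was higher in uterine epithelium, to set side by side the letters just before the start of each gene. The windows hold the bases just before the transcription start that lie outside the gene, read 5′ to 3′ on the gene's strand. Capitals mark matches to CCAAT or GGGCGG on either strand.
Pax8, chr2:24475600-24475724, minus strand: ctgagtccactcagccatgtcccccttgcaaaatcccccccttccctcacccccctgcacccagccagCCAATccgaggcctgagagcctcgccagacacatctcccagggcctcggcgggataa
Lhx1, chr11:84525536-84525659, minus strand: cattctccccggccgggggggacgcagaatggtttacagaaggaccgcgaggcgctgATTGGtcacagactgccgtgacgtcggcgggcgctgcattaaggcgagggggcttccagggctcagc
Pax2, chr19:44755627-44755751, plus strand: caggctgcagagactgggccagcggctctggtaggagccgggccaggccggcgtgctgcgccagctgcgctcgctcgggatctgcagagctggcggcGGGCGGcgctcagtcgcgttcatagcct
The Lhx1 window is the whole interval between Lhx1 and Lhx1os. CCAAT, or its reverse complement ATTGG, is present at 53 to 57 bases before the start of Pax8 and at 64 to 68 bases before that of Lhx1. It is also at 17 to 21 bases before the RefSeq start of Emx2, which was not called between the organs in epithelium and whose window, lying inside the gene by GENCODE, is not printed. RefSeq lists 3 starts for Pax2, and the one nearest to the GENCODE start, 293 bases before it, was used. In the Pax2 window GGGCGG lies at 23 to 28 bases before the start and CCAAT is not among the letters. Of the other two Pax2 starts, one has GGGCGG at 59 to 64 bases before it and the other none of the motifs searched. Among 32851 mouse promoter windows of the length of that of Pax8, 21.9% hold CCAAT and 26.9% hold GGGCGG on either strand, so that these matches describe the sequences and nothing more. TATAAA (6.55% of windows) and CAGGTG (8.82%) were also searched on both strands and are in none of the 3 windows.

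Of 26619 called barcodes, 20164 passed the filters on genes, mitochondrial UMIs and probable doublets, and 8 to 15 barcodes were shared by any 2 libraries. Called barcodes per library had a median of 9608 to 11890.5 UMIs, and totals were 61117726 to 114419939 UMIs. The epithelium held 128 and 243 cells in oviduct libraries and 51 and 63 in uterus libraries. All 10 epithelial markers were present in each, with a summed level of 4241 to 5235 CPM. Median depth was 27117.5 and 15347 UMIs per epithelial cell in oviduct libraries and 5778 and 2588 in uterus libraries, where 23 and 22 cells of at least 10000 UMIs held 93.5% and 95.7% of all epithelial UMIs. In oviduct libraries 12.6% and 13.3% of cells met no gate and were left out, and in uterus libraries 22.5% and 30.9%. The 8 mesenchymal markers summed to 8889 and 9261 CPM in oviduct mesenchyme and to 4320 and 4296 in uterine mesenchyme. The part of the gate in the organ differences in mesenchyme was not tested.

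The genes fell into 3 patterns across the 7 cell classes. Pax2, Pax8 and Lhx1 had their highest mean level in the epithelium of both organs. Emx2 and Wt1 had their highest mean level in the mesothelium, the outer lining, and were also present in mesenchyme, smooth muscle and pericytes. By mean level, epithelium came next for Emx2 in both organs and for Wt1 in the oviduct. In uterus replicate 2 Emx2 was at 106 CPM in epithelium and 104 in mesothelium. Sox17 was high in epithelium and in blood endothelium and at most 5.85 CPM in every other class. Over the 28 sums of class by library, the log2 levels of Pax2 and Pax8 had a Pearson r of 0.88 and those of Emx2 and Wt1 of 0.80, whereas Wt1 and Sox17 had -0.55. These correlations are descriptions: the sums of a library share its cells and its free RNA.

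**Figure D1:**
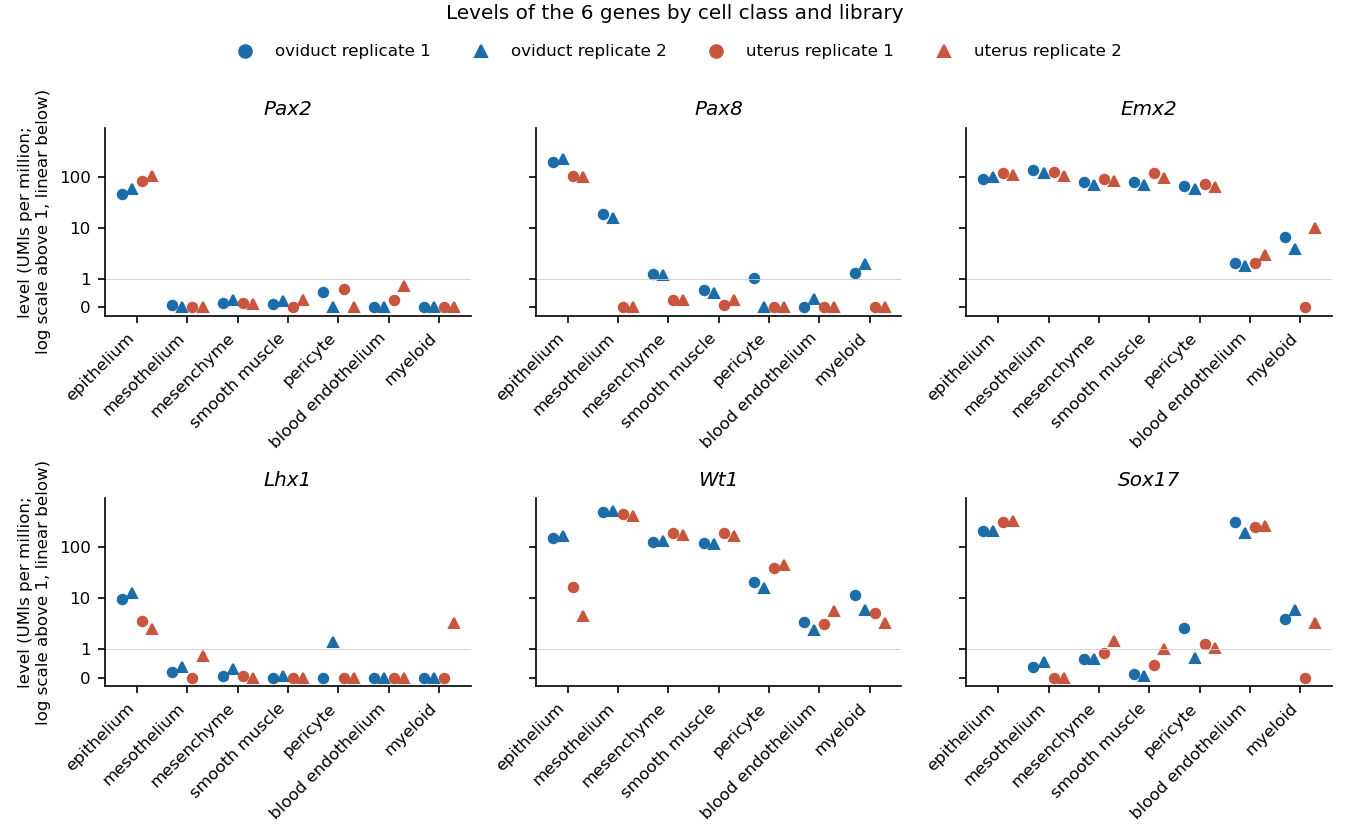
Level of each gene (CPM, on a scale that is logarithmic above 1 and linear below) in 7 cell classes, with 1 point per library. By organ mean, Pax2, Pax8 and Lhx1 are highest in epithelium and Emx2 and Wt1 in mesothelium, while Sox17 is high in epithelium and blood endothelium. In uterus replicate 2 Emx2 is higher in epithelium (106) than in mesothelium (104). Wt1 in epithelium separates the oviduct (150 and 163) from the uterus (16.3 and 4.43).

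Pax2 was measured almost only in epithelium. Its level there was 45.7 and 57.1 CPM in oviduct libraries and 83.4 and 105 in uterus libraries. Both uterine libraries stood above both oviduct libraries. The log2 fold change, oviduct minus uterus, was -0.75 ± 0.20 (SE) with an adjusted p of 0.0156 (edgeR). In this comparison 21.1% of the 12143 genes tested were called, and 4 of the 6 genes described here, all of which were tested. For each of the 6 genes both values of an organ lay on 1 side of those of the other organ, as they did for 63.1% of all genes tested. The call of Pax2 was lost without oviduct replicate 1 (-0.59, adjusted p = 0.122), without uterus replicate 2 (-0.52, adjusted p = 0.163) and with an upper estimate of free RNA subtracted (-0.51, adjusted p = 0.124). The summed level of a proliferation marker list was also higher in uterine epithelium, at 1271 and 1580 against 803 and 468 CPM. Among cells of at least 5000 UMIs with a low proliferation score, Pax2 was at 43.0 and 58.8 in oviduct libraries and 88.9 and 113 in uterus libraries. The part of proliferation in the Pax2 result was not tested.

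Outside the epithelium Pax2 did not exceed 0.75 CPM in any class or library. In mesothelium a single UMI was counted over 4 libraries. Markers of the mesonephric duct, the neighbouring duct that also expresses Pax2 and Pax8, were looked at in the epithelium. Of 7 such markers, Gata2 was higher in the uterus, as Pax2 was, at 13.0 and 5.01 CPM in oviduct epithelium against 79.2 and 64.9. Gata3 was at 8.59 and 9.21 against 1.41 and 0.98, and Ret at 1.91 and 3.27 against 0.71 and 2.46. Aqp2 and Tfap2b were at 0 in both uterine libraries and at most 0.41 in the oviduct. Calb1 was at 43.4 and 53.8 in oviduct libraries and 2.12 and 2.95 in uterus libraries, and Wfdc2, a secreted protein that is also made by the Müllerian epithelium, at 2718 and 1823 against 5862 and 6642. The part of mesonephric cells in the Pax2 result was not tested.

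Pax8 was highest in oviduct epithelium. Its level was 195 and 218 CPM in oviduct libraries and 102 and 98.9 in uterus libraries. The organs did not overlap, and the log2 fold change was 1.18 ± 0.18 with an adjusted p of 0.000485. The oviduct epithelium also held more RNA of multiciliated cell genes, with a summed level of 213 and 172 against 28.3 and 32.5 over 8 markers. In epithelial cells of at least 5000 UMIs with no UMI of Foxj1, the regulator of multiciliated cells, Pax8 was at 172 and 210 in oviduct libraries and at 107 and 102 in uterus libraries. The part of multiciliated cells in the Pax8 result was not tested.

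Unlike Pax2, Pax8 was also found in the mesothelium, and there only in the oviduct. It had 294 and 166 UMIs (18.5 and 15.3 CPM) in the 389 and 424 mesothelial cells of the oviduct libraries. It had 0 UMIs in the 68 and 52 mesothelial cells of the uterus libraries. Against a floor of 3 UMIs over both uterine libraries, the oviduct level of Pax8 was at least 15.3-fold higher, with an adjusted p of 0.000144 (edgeR). In mesothelium 7.68% of 12622 genes were called, or 1529 genes in place of 970 with the replicate number as a block. Of the 6 genes only Pax8, Emx2 and Wt1 had enough counts to be tested there, and Pax8 alone was called. With 0 UMIs in the uterus, Pax8 passed the filter on low counts only through the oviduct. Its p-value and the count of called members thus depend in part on the filter. When each cell was thinned to 3000 UMIs, 5.19% (exact 95% interval 3.20 to 7.91%) and 4.19% (2.46 to 6.62%) of oviduct mesothelial cells had a Pax8 UMI. At that depth 0 of 68 and 0 of 52 uterine cells allow shares of up to 4.41% and 5.77% by a floor of 3 cells, which reach into the oviduct intervals. Without thinning, 27.8% (23.4 to 32.5%) and 20.05% (16.3 to 24.2%) of oviduct mesothelial cells had a Pax8 UMI and 0 of the same 68 and 52 uterine ones, with the same limits, at median depths of 21170 and 15748.5 UMIs against 14478 and 21355.

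Oviduct mesothelial cells with and without a Pax8 UMI were set side by side, with no test. The 108 and 85 oviduct mesothelial cells with a Pax8 UMI had Wt1 at 494 and 496 CPM, against 467 and 517 in the 281 and 339 cells without one. Upk3b, a uroplakin that marks mesothelium, was at 819 and 837 against 924 and 913, and Msln, another mesothelial gene, at 236 and 233 against 364 and 308. The epithelial markers went both ways. The adhesion gene Epcam was at 43.0 and 47.3 against 36.1 and 33.5 and Cdh1, which encodes E-cadherin, at 1.77 and 2.25 against 3.40 and 2.98, while Cldn3, Cldn4, Krt8 and Krt18 were lower in the Pax8 cells of replicate 1 and higher in those of replicate 2. Pax2 and Sox17 were at most 0.78 in either set, and Esrp1, an epithelial splicing factor, was at 0 in both. Cells with a Pax8 UMI were deeper (43575 and 25328 UMIs at the median, against 17205 and 14705), which by itself raises the chance to detect a UMI. Free RNA could account for at most 6.59% and 7.99% of the Pax8 UMIs in oviduct mesothelium. The summed level of 10 epithelial markers in the mesothelium was 1071 and 1014 in oviduct libraries and 743 and 758 in uterus libraries, and that of 8 mesenchymal markers 6960 and 6213 against 10983 and 8881. The part of such RNA in the Pax8 result was not tested.

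In mesenchyme Pax8 was at 1.22 and 1.19 in oviduct libraries and 0.24 and 0.25 in uterus libraries, with a log2 fold change of 2.25 ± 0.35 (adjusted p = 0.00043). Free RNA could account for 80.3% and 94.9% of those UMIs in the oviduct and for all of them in the uterus, and 42.9% of 15111 genes were called in that class. Pax8 passed the filter on low counts in mesenchyme only through the oviduct, so that its call there depends in part on the filter. With Pax8 counted, all 4 of the 6 genes that were tested in mesenchyme were called there.

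Lhx1 had few UMIs, most of them epithelial. In epithelium it had 70 and 110 UMIs in the oviduct libraries, or 9.55 and 12.8 CPM, and 5 and 5 UMIs in the uterus libraries, or 3.54 and 2.46 CPM. The organs did not overlap, and the log2 fold change was 2.07 ± 0.41 (adjusted p = 0.00326). In a ratio of the pooled counts Lhx1 was 3.90-fold higher in the oviduct, with an exact 95% interval of 2.07 to 8.27 that covers counting error only. Its divergent partner Lhx1os had 21 and 27 UMIs in oviduct epithelium and 2 and 0 in uterine epithelium, a ratio of 5.20 (1.36 to 44.2), and was not called (adjusted p = 0.0662). Outside the epithelium Lhx1 reached at most 10 UMIs in any class and library, and for those 10, in the mesenchyme of oviduct replicate 2, free RNA could account for at most 5.77%.

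Lhx1 RNA was thinly spread over the oviduct epithelium. At 3000 UMIs per cell, 3 of 114 and 5 of 189 oviduct epithelial cells had an Lhx1 UMI (2.63% and 2.65%), and 0 of 37 and 0 of 27 uterine cells, which allow up to 8.11% and 11.1%. Without thinning, 25.0% and 17.7% of oviduct and 5.88% and 6.35% of uterine epithelial cells had one. Of the oviduct epithelial cells thinned to 10000 UMIs, 8 and 11 had Lhx1, and 5 and 5 of these also had Pax2, where the product of the separate shares gives 2.26 and 3.09 cells. These counts are too small to read a relation from.

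Emx2 was found in epithelium, mesothelium, mesenchyme, smooth muscle and pericytes. In epithelium it was at 88.5 and 101 CPM in oviduct libraries and 116 and 106 in uterus libraries, and the log2 fold change of -0.09 ± 0.17 was not called (adjusted p = 0.756). In mesothelium it was at 135 and 120 against 126 and 104 (0.14 ± 0.14, adjusted p = 0.639). In pericytes it was at 65.4 and 57.3 against 70.8 and 63.1 (-0.15 ± 0.16, adjusted p = 0.743). Blood endothelium held 1.77 to 2.99, all of which free RNA could account for.

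In smooth muscle and mesenchyme Emx2 was lower in the oviduct. In smooth muscle its level was 77.9 and 68.1 in oviduct libraries and 117 and 95.4 in uterus libraries, with a log2 fold change of -0.56 ± 0.11 (adjusted p = 0.00207). There 31.0% of 13530 genes were called, and Emx2 and Wt1, the only members tested, were both called. The smooth muscle call of Emx2 was lost without oviduct replicate 2 (-0.46, adjusted p = 0.0905). In mesenchyme it was at 77.4 and 67.6 against 91.9 and 83.7 (-0.31 ± 0.09, adjusted p = 0.0172), a call that was lost without oviduct replicate 2 (-0.20, adjusted p = 0.119) and without uterus replicate 1 (-0.26, adjusted p = 0.0983). Whether the organ difference itself differed between classes was tested with an interaction. It was 0.53 ± 0.12 higher in mesothelium than in mesenchyme (adjusted p = 0.00268), whereas between epithelium and mesenchyme the interaction of 0.30 ± 0.17 was not called (adjusted p = 0.25).

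Between classes, as a mean over both organs, Emx2 was 0.45 ± 0.06 higher on the log2 scale in mesothelium than in mesenchyme (adjusted p = 7.08e-07). That comparison called 55.5% of genes. Epithelium and mesothelium, neighbours in the order of levels, did not separate (-0.17 ± 0.10, adjusted p = 0.168), where 58.9% of genes were called. The overlapping antisense gene Emx2os had the level nearest in pattern after Phgdh, an enzyme of serine synthesis, with a Pearson r of 0.96 over the 28 sums for each. Emx2os was lower in oviduct mesenchyme (-0.43 ± 0.14, adjusted p = 0.0291) and smooth muscle (-0.67 ± 0.16, adjusted p = 0.00827), like Emx2. In epithelium it was not called (0.47 ± 0.21, adjusted p = 0.132), and its organ difference there exceeded that in mesenchyme by 0.98 ± 0.19 (adjusted p = 0.000557), an interaction that was not called for Emx2. The strand setting of the counting is not given in the sources used here, and for UMIs in the 264 shared bases the genes cannot be told apart without it.

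Among the 6 genes, Wt1 had the widest organ difference in epithelium. It had 1103 and 1402 UMIs in oviduct epithelium, or 150 and 163 CPM, and 23 and 9 UMIs in uterine epithelium, or 16.3 and 4.43 CPM. The 2 uterine libraries were both far below the oviduct libraries. The log2 fold change was 4.18 ± 0.33 (adjusted p = 3.2e-06), and it lay between 3.45 and 6.24 in 14 alternative analyses, all of them called. Free RNA, in which Wt1 was at 96.1 to 146 CPM, could account for at most 27.4% and 19.1% of the Wt1 UMIs in oviduct epithelium, and for 69.3% and all of them in uterine epithelium. At 3000 UMIs per cell, 35 of 114 (30.7%) and 65 of 189 (34.4%) oviduct epithelial cells had a Wt1 UMI, and 0 of 37 and 3 of 27 uterine ones, where 0 of 37 allows up to 8.11%. In blood endothelium, where free RNA could account for all Wt1 UMIs, the share at that depth was 0 to 1.94%, at a median depth of 14494 to 18507 UMIs. The bound on free RNA was 5.47% to 9.15% of UMIs there, against 28.2% and 24.4% in oviduct epithelium. The endothelial share therefore sets no background for the epithelial ones.

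Within oviduct epithelium Wt1 was present in cells with and without Foxj1 RNA. Among cells of at least 5000 UMIs it was at 182 and 181 CPM in cells with a Foxj1 UMI and at 75.1 and 117 in cells without one, and the former were deeper (80710.5 and 60658 UMIs at the median, against 25249.5 and 20289). The cells without Foxj1 RNA in the uterus had 24.3 and 4.12. The part of multiciliated cells in the Wt1 result was not tested. The divergent gene Wt1os followed the same pattern, with 116 and 134 UMIs in oviduct epithelium and 1 and 0 in uterine epithelium, a pooled ratio of 54.2 with an interval of 9.64 to 2148.

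Outside the epithelium the Wt1 difference was small or ran the other way. In mesothelium, where it was highest, it was at 479 and 511 CPM in oviduct libraries and 445 and 401 in uterus libraries (0.22 ± 0.12, adjusted p = 0.357), so that both oviduct values were the higher ones but the difference was not called. In mesenchyme it was at 128 and 133 against 186 and 171 (-0.48 ± 0.07, adjusted p = 0.000392). In smooth muscle it was at 122 and 113 against 186 and 164 (-0.59 ± 0.09, adjusted p = 0.000315). In each of these 2 classes both oviduct libraries were below both uterine ones. In pericytes, the contractile cells around small vessels, it was at 20.6 and 15.6 against 39.9 and 45.5 (-1.26 ± 0.23, adjusted p = 0.000752), in a class where 4.79% of 9844 genes were called. Free RNA could account for 20.9% to 42.7% of the pericyte UMIs of Wt1.

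**Figure D2:**
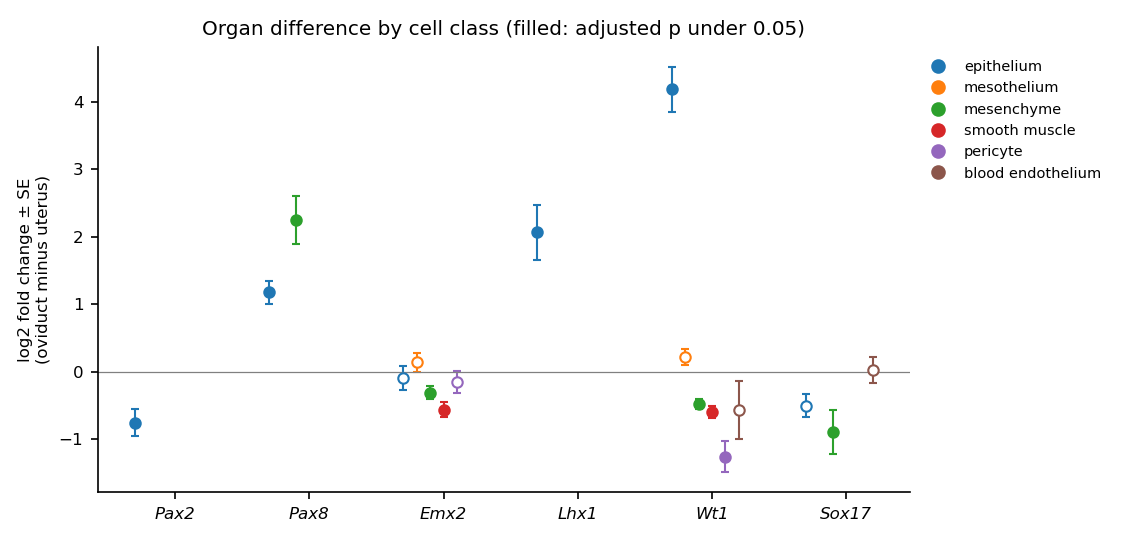
Log2 fold change between oviduct and uterus (positive where the oviduct is higher) with its standard error from edgeR, for each gene and class in which both organs hold more than 3 UMIs and the gene was tested. Filled points are called at an adjusted p under 0.05; Wt1 is at 4.18 in epithelium and at -0.48 to -1.26 in mesenchyme, smooth muscle and pericytes.

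The opposite directions of Wt1 were tested as an interaction of organ and class. The organ difference in epithelium exceeded that in mesenchyme by 4.76 ± 0.26 on the log2 scale (adjusted p = 2.29e-12), and that in mesothelium by 3.93 ± 0.31 (adjusted p = 9.39e-07). The organ difference in mesothelium exceeded that in mesenchyme by 0.78 ± 0.10 (adjusted p = 1.23e-06). In myeloid cells none of the 6 genes was tested, and 0.274% of genes were called between the organs. The share of all genes called in these 3 interactions was 18.0%, 10.5% and 17.9%.

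The mesenchyme of the oviduct was not uniform in Wt1. Clusters, found without the 6 genes, are given by 2 of their leading genes. In the Wnt16 and Fst cluster, the largest of the oviduct, Wt1 was at 48.6 and 41.1 CPM over 1115 and 715 cells. In the Nefm and Nefl cluster, with neurofilament genes, it was at 132 and 139 over 381 and 255 cells. In the Syt1 and Angptl7 cluster it was at 342 and 343 over 521 and 428 cells. The gap between these clusters exceeded the gap between the libraries of each. In the uterine clusters other than the Dppa3 cluster, each of at least 50 cells per library, Wt1 ran from 142 to 209. The oviduct mesenchyme thus held clusters on either side of the uterine range.

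Emx2 followed a narrower course over the same clusters. It was at 74.8 and 62.2 in the Wnt16 and Fst cluster, at 45.9 and 37.3 in the Nefm and Nefl cluster, and at 105 and 95.6 in the Syt1 and Angptl7 cluster. Leaving out the Dppa3 and the Krt19 and Crip1 clusters, whose cells had a median of 1188 to 2580 UMIs, Pax8 was highest in the Syt1 and Angptl7 cluster, at 4.29 and 3.12 CPM.

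**Figure D3:**
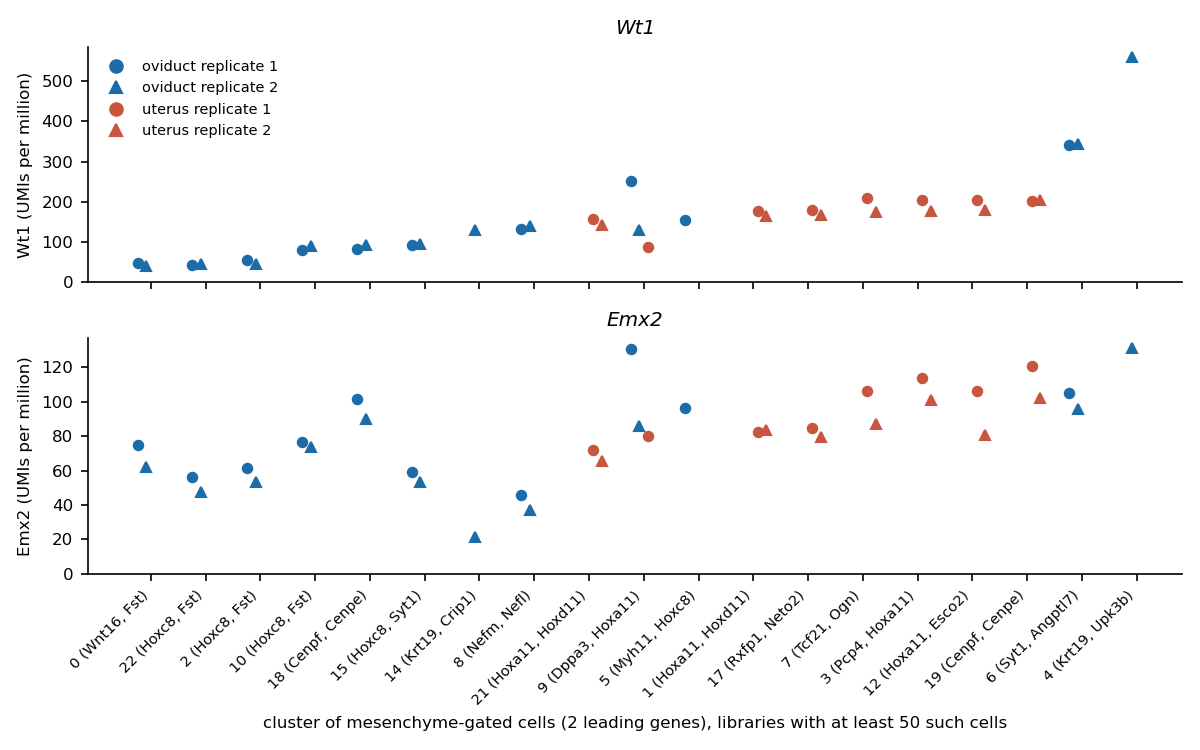
Wt1 (top) and Emx2 (bottom) in CPM in each cluster of mesenchyme-gated cells, with 1 point per library that holds at least 50 cells of the cluster, in order of mean Wt1. Oviduct clusters span 41.1 to 343 for Wt1 before the Krt19 and Upk3b cluster at the right (559), and uterine clusters other than the Dppa3 cluster 142 to 209; the Dppa3 and Krt19, Crip1 clusters hold cells of 1188 to 2580 median UMIs.

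Sox17 was high in epithelium and in blood endothelium. In epithelium it was at 205 and 206 CPM in oviduct libraries and at 315 and 324 in uterus libraries. The organs did not overlap, and the log2 fold change of -0.50 ± 0.17 just missed the threshold (adjusted p = 0.0501). It passed in 4 of 14 alternatives, with DESeq2 (adjusted p = 0.0475), without TMM scaling (0.0122), with the looser gate (0.0437) and with classes from Leiden clusters (0.0416). It did not pass in the other 10, where the adjusted p ran from 0.0513 without uterus replicate 1 to 0.379 with free RNA subtracted, which also moved the value to -0.27. At 3000 UMIs per cell, 34.2% (25.6 to 43.7%) and 39.2% (32.2 to 46.5%) of oviduct epithelial cells had a Sox17 UMI, and 62.2% (44.8 to 77.5%) and 66.7% (46.0 to 83.5%) of uterine ones.

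In blood endothelium Sox17 was at 314 and 188 in oviduct libraries and at 251 and 256 in uterus libraries. The oviduct libraries lay on either side of the uterine ones, and no difference was called (0.02 ± 0.20, adjusted p = 0.985), in a class where 2.74% of 11114 genes were called. Within the endothelium Sox17 was higher in cells with a high score of arterial markers, from a list without Sox17. It was at 493 and 276 in the arterial cells and 200 and 161 in the others of the oviduct libraries, and at 409 and 457 against 206 and 220 in the uterus libraries. Each of the 4 libraries moved the same way. Sox7 and Sox18, the other members of the same Sox subgroup, were at 133 to 214 against 26.4 to 82.1 and at 177 to 248 against 156 to 174. The arterial cells numbered 41, 33, 40 and 28 and had medians of 12955 to 25350 UMIs, against 14597 to 16283 in the others. These differences between cells of the same libraries were not tested.

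**Figure D4:**
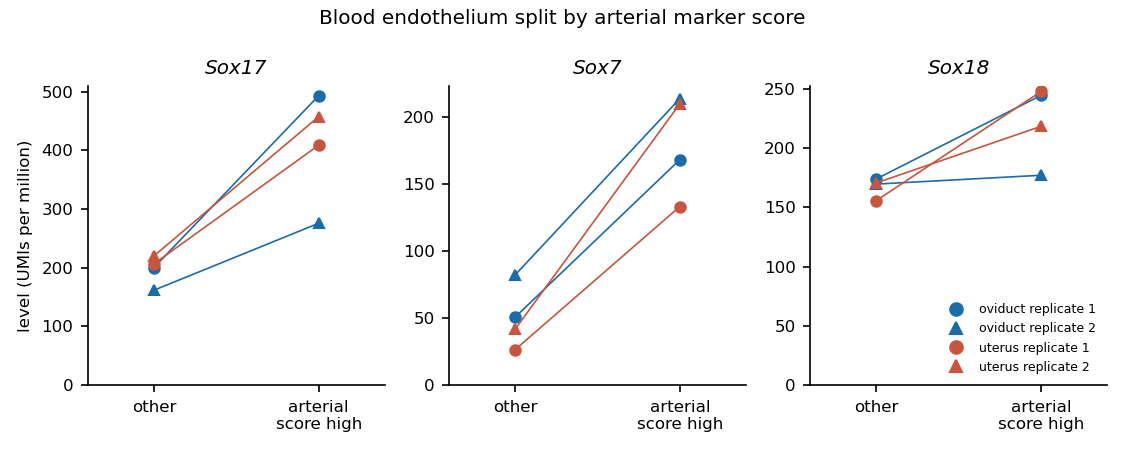
Sox17, Sox7 and Sox18 in CPM in blood endothelial cells with a high arterial marker score and in the other blood endothelial cells, with 1 line per library. All 12 lines rise, that of Sox18 in oviduct replicate 2 only from 170 to 177.

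In mesenchyme Sox17 was at 0.65 and 0.66 in oviduct libraries and 0.88 and 1.48 in uterus libraries, and its call (-0.89 ± 0.33, adjusted p = 0.0484) was lost in 7 of 13 alternatives, with adjusted p from 0.0529 with Leiden clusters to 0.479 without uterus replicate 2 (-0.43). Free RNA could account for all of these UMIs.

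The class differences set the 6 genes apart. Between epithelium and mesenchyme, Pax2 was 8.61 ± 0.16, Pax8 7.90 ± 0.13, Sox17 8.06 ± 0.12 and Lhx1 6.39 ± 0.69 higher in epithelium on the log2 scale, each with an adjusted p of at most 1.04e-08. Pax2 and Lhx1 passed the filter on low counts only through the epithelium, so that their p-values depend in part on the filter. Free RNA could account for at least 97.4% of the mesenchymal UMIs of Pax2, at least 80.3% of those of Pax8 and all of those of Sox17. In 9 alternatives their differences ran from 8.37 to 13.3 (Pax2), 7.84 to 12.0 (Pax8) and 7.96 to 15.2 (Sox17). In the same comparison Emx2 was 0.25 ± 0.08 higher in epithelium (adjusted p = 0.0122) and Wt1 2.10 ± 0.13 lower (log2 value -2.10, adjusted p = 4.24e-13). That comparison called 64.8% of 15487 genes. Its values are means over both organs, which for Wt1 went opposite ways. With no free RNA taken off, Wt1 in oviduct libraries was at 150 and 163 CPM in epithelium and 128 and 133 in mesenchyme. In uterus libraries it was at 16.3 and 4.43 against 186 and 171. The Emx2 difference was lost with DESeq2 (0.26, adjusted p = 0.0574) and without oviduct replicate 2 (0.13, adjusted p = 0.368), among others.

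Most like each gene over the 28 sums, among 10002 other genes, were Esrp1 (r = 0.99), Ap1m2 and Pla2g5 for Pax2, Tspan1 (0.98), Dact2 and Cldn4 for Pax8, and Jak2 (0.91), Ptpn22 and Slc34a2 for Lhx1. For Wt1 they were Csdc2 (0.97), Wt1os and Wasf1. For Sox17 they were Mecom (0.95), Cx3cl1 and Sox7, and Emx2 was nearest to Phgdh, Emx2os and Dlg3. Esrp1 and Cldn4 are epithelial markers of the gate, so that their likeness to Pax2 and Pax8 partly restates the class.

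Other regulators of the duct and the kidney were called in both directions in epithelium. Of 17 listed genes 9 were tested, 1 was higher and 2 were lower in the oviduct, where 21.1% of all genes were called, with a median log2 fold change of -0.18 beside 0.01 over all genes tested. Gata3, a zinc finger factor of the mesonephric duct, was at 8.59 and 9.21 against 1.41 and 0.98 (3.04 ± 0.50, adjusted p = 0.000903). It passed the filter on low counts only through the oviduct, so that the count of called genes is no result about the list. Gata2, given above beside Pax2, differed by -2.88 ± 0.32 and Mecom at 284 and 397 against 739 and 497 (-0.72 ± 0.22).

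Among family members of the 6 genes, 6 of 21 were tested in epithelium, of which 2 were higher and 2 lower in the oviduct, beside 21.1% of all genes called. Sox7 was at 39.3 and 49.6 against 12.0 and 17.7 (1.67 ± 0.25), and Sox18 had 61 UMIs in oviduct libraries and 0 in uterus libraries, at least 4.41-fold higher against a floor of 3 UMIs over both libraries. Sox18 is also an endothelial gene, and the summed level of 10 blood endothelial markers in the epithelium was 68.9 and 50.5 CPM in the oviduct against 29.0 and 28.5. The bound on free RNA, set by those markers, was 28.2% and 24.4% of epithelial UMIs against 11.6% and 11.0%, and the part of endothelial RNA in the Sox18 and Sox7 values was not tested. Sox4 (-0.81 ± 0.17) and Sox11 (-0.60 ± 0.17) were lower in the oviduct. Sox18 passed the filter on low counts in epithelium only through the oviduct, so that the counts of called genes there are no result about the list. In mesenchyme 8 of the 9 tested were called, all higher in the oviduct, with a median of 1.35 beside 0.00 over all genes, of which 42.9% were called. Lhx9 (70 against 2 UMIs), Lhx2 (31 against 6), Pax6 (44 against 11), Sox7 (51 against 2) and Sox9 (336 against 12) passed the filter on low counts only through the oviduct. The count and the median thus depend in part on the filter and are no result about the list. The part of endothelial RNA in the mesenchymal Sox7 and Sox18 values was not tested.

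Of 16 duct signals and receptors, 10 were tested in epithelium, 5 were higher in the oviduct and 2 lower, beside 21.1% of all genes called. Wnt11, a Wnt ligand of branching ducts, was at 65.9 and 75.1 against 7.07 and 10.8 (3.06 ± 0.25). Wnt7a, which the uterine epithelium makes to pattern the stroma, was at 31.5 and 38.0 against 130 and 131 (-1.77 ± 0.18). Gfra1, a co-receptor of GDNF, had 199 UMIs against 1, a ratio of 43.1 (7.65 to 1712). Slit2 was higher as well (1.53 ± 0.43) and its receptor Robo2 lower (-0.89 ± 0.19). In epithelium Gfra1 and Slit2 passed the filter on low counts only through the oviduct. In mesenchyme, where 42.9% of all genes were called, each of the 12 tested genes of the list was called, with Slit2 at 2.33 ± 0.10 and Robo2 at -1.62 ± 0.09. There Gfra1 passed the filter on low counts only through the oviduct, and Wnt7a and Gdnf only through the uterus. The counts of called genes in epithelium and mesenchyme thus depend in part on the filter and are no result about the list.

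Of 14 coelomic and Wt1-linked genes, 7 were tested in epithelium, 4 were higher in the oviduct and 0 lower, beside 21.1% of all genes called, with a median of 1.60. Gata6, a zinc finger factor of the coelomic lining, had 975 UMIs in oviduct epithelium and 2 in uterine epithelium, a ratio of 106 (29.2 to 874). Bnc2 was at 11.0 and 12.5 against 4.24 and 1.48 (2.28 ± 0.43), and Aldh1a2, which makes retinoic acid, had 76 UMIs against 0, at least 5.49-fold higher. Gata6, Bnc2 and Aldh1a2 passed the filter on low counts only through the oviduct. The count of called genes and the median in epithelium thus depend in part on the filter and are no result about the list. In mesothelium, where 7.68% of all genes were called, 3 of the 12 tested were called. Aldh1a2 was higher in the oviduct (0.63 ± 0.12), and Tcf21 (-3.58 ± 0.29) and Tbx18, with 2 UMIs against 15, were lower. Tbx18 passed the filter on low counts there only through the uterus. There Gata6 was at 389 and 403 against 319 and 301 (0.35 ± 0.12, adjusted p = 0.116). In the same mesothelium 8 mesenchymal markers summed to 6960 and 6213 CPM in oviduct libraries and 10983 and 8881 in uterus libraries. In mesenchyme Tcf21 was at 66.6 and 69.8 against 199 and 231. The part of mesenchymal RNA in the mesothelial values was not tested. Markers of mesothelium summed to 86.6 and 65.7 CPM in oviduct epithelium and 64.3 and 37.9 in uterine epithelium. The part of mesothelial RNA in the epithelial values was not tested.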

How the data were processed

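Gene counts per barcode were deposited for 2 oviduct and 2 uterus libraries (10x 3' chemistry). The deposited counts are raw UMI counts made by the authors with Cell Ranger, version 6.0.1 in the filtered and 4 in the raw matrices per the file headers, on mm10 per the submitters' processing notes, which also name Seurat 4.2.3. For the annotation and for intron counting, nothing is stated in the labels or headers. Barcodes under 500 genes or above 15% mitochondrial UMIs were removed. Because Scrublet's own threshold marked only 4 barcodes, those with the highest doublet scores were removed at 0.8% per 1000 barcodes (1162). Cells were assigned to 7 classes by marker scores, without the 6 genes, and counts were summed per class and library. Free RNA was taken from droplets of at most 100 UMIs, and its upper bound per class and library was the largest ratio to it over lists of genes foreign to the class (haemoglobin, myeloid, endothelial, epithelial or mesenchymal); none of the bounds was set by haemoglobin. The sums were tested with edgeR 4.0.16 (quasi-likelihood, TMM, filterByExpr, R 4.3.3), two-sided, with Benjamini-Hochberg adjustment over all genes tested and a threshold of 0.05; the script was tested on simulated data. Differences are oviduct minus uterus with their SE. Intervals of shares and ratios are exact at 95% (Clopper-Pearson for shares), cover counting error only, and the floor is 3 counts. Likeness was Pearson's r of log2(level + 1). Alternatives were DESeq2 1.42.0, no TMM, no filter on low counts, a replicate block, leaving out each library, doublets kept, other cell filters and gates, Leiden clusters (scanpy 1.11.5) and free RNA subtracted.

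Deviations of same-numbered libraries from their organ's mean correlated at 0.20 in mesenchyme, 0.11 in mesothelium and in smooth muscle, and 0.03 in pericytes. In epithelium, blood endothelium and myeloid cells the values were -0.09, -0.08 and -0.01. Both organs came from the same neonates, but which number stands for which pool is not stated, so the fit without the block is reported.

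The 6 genes and the gene lists were chosen with earlier results of these data known. All 6 genes are named whatever their result, with antisense partners, the 3 genes most like each, and from each list up to 3 called genes per direction with the largest change in epithelium.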

Additional observations from a re-analysis of the deposited data

Results flagged for a closer look

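For 3 of the genes the difference between oviduct and uterus itself differed between cell classes by edgeR's interaction test, with Benjamini-Hochberg adjustment over all genes. Of the 6 genes, 1 of 6 tested was called between epithelium and mesenchyme, 3 of 4 between mesothelium and mesenchyme and 2 of 6 between epithelium and mesothelium, beside 18.0%, 17.9% and 10.5% of all genes. For Wt1 the difference was 4.76 higher on the log2 scale in epithelium than in mesenchyme, 3.93 higher in epithelium than in mesothelium and 0.78 higher in mesothelium than in mesenchyme. For Emx2 it was 0.53 higher in mesothelium than in mesenchyme. For Pax8 the interaction was 9.12 between mesothelium and mesenchyme (adjusted p = 0.0102) and -8.47 between epithelium and mesothelium (adjusted p = 0.00145). Both Pax8 values rest on a uterine mesothelium with 0 UMIs, depend on the prior count and are no bound. For the first of these values Pax8 passed the filter on low counts only through the oviduct. The first of them was lost without uterus replicate 1 (adjusted p = 0.0525), without uterus replicate 2 (adjusted p = 0.0584) and with free RNA subtracted (adjusted p = 1).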

How the results depend on the processing

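Of 548 alternative values for the 6 genes, 501 kept their direction and side of the threshold, 27 lost the call, 4 gained one and 16 changed sign. The calls of Wt1, Pax8 and Lhx1 in epithelium held in all 14 alternatives each. The sign changes were of uncalled values, and their cause was not tested. Emx2 in epithelium became 0.013 without oviduct replicate 1 (-0.18 without oviduct replicate 2) and 0.026 with free RNA subtracted. Sox17 in blood endothelium became -0.0089 without TMM, -0.028 with the replicate block and -0.035 with doublets kept, and ran from -0.42 to 0.35 as each library was left out. Wt1 there ran from -0.92 to 0.0019. The Lhx1 interaction of epithelium and mesenchyme ran from -2.46 to 1.02 and was 0.19 with free RNA subtracted, where that of Sox17 was -0.25. The Lhx1 interaction of epithelium and mesothelium ran from -2.22 to 3.68, and that of Pax2 was 1.15 with DESeq2. The class difference of Pax8, mesothelium minus mesenchyme as a mean over both organs, was -0.84 ± 2.54 with edgeR (adjusted p = 0.797). This class difference became 1.35 with DESeq2 and 3.19 with free RNA subtracted.

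Counts of called genes fell with DESeq2 to 1518 in epithelium (from 2562), 609 in mesothelium (970), 2699 in smooth muscle (4190), 179 in pericytes (472) and 147 in blood endothelium (305), and to 1469, 1514 and 672 in the interactions of epithelium with mesenchyme, mesothelium with mesenchyme and epithelium with mesothelium. In myeloid cells, where none of the 6 genes was tested, 16 genes were called, 34 with DESeq2, 248 without the filter, 46 with the block, 1 with the stricter gate and 3 with free RNA subtracted. Without the filter 549 were called in blood endothelium, and with free RNA subtracted 1793 in the first interaction. The replicate block raised mesothelium to 1529 and changed no call of the 6 genes in the organ differences within classes; it was not run for the interactions and class differences. Leaving out 1 library gave 1597 (without oviduct replicate 2) to 2488 in epithelium, 2052 to 2778 in smooth muscle, 121 (without uterus replicate 1) to 436 in blood endothelium, 78 to 163 in myeloid cells and 890 (without oviduct replicate 2) to 1687 in the last interaction. The mean share of oviduct epithelial cells with a Pax8 UMI was 43.3% at 3000 UMIs, 14.1% at 1000 and 71.2% without thinning. The stricter cell filter was not run in myeloid cells, where a library fell under 20 cells.

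With 2 pooled libraries per organ the spread is estimated from few degrees of freedom. Uterine epithelium and mesothelium rest on 51 to 68 cells per library, and uterine levels of Lhx1 and Wt1 in epithelium on 5 to 23 UMIs. Between 28.7% and 29.0% of uterine barcodes failed the filters, against 11.4% and 13.8% in the oviduct.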
